A study of Mus musculus with 12 samples.

Results

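Peaks of open chromatin assigned to 10 genes of the disease-associated microglia programme that encode surface or secreted proteins were compared between SgshKO and WT mice. The genes were Cst7, Gpnmb, Itgax, Spp1, Clec7a, Axl, Cd9, Cd63, Csf1 and Lgals3, and every peak whose nearest gene in the deposited tables was among them was taken, whatever its values. They held 102 of the 91770 peaks of microglia, 23 of the 107627 peaks of NeuN+ nuclei and 64 of the 82577 peaks of Olig2+ nuclei, or 189 of 281974 in all. A peak within 1000 bp of the transcription start site (TSS) is called a start-site peak, and any other a distal peak. By that division 16, 2 and 10 of these peaks lay at a start site in microglia, NeuN+ and Olig2+ nuclei.

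ATAC-seq, in which a transposase cuts and tags accessible DNA, was done on forebrain of C57BL/6 mice aged 4 months, with 12 libraries in 6 groups of 2. The genotypes were WT and SgshKO. Sgsh encodes a lysosomal sulfatase that takes part in the breakdown of heparan sulfate. Its loss in people causes a form of Sanfilippo disease. No group had a treatment by its labels, which give neither the kind of allele nor sex, nor whether the 2 libraries of a group came from separate animals, so that p-values measure only the spread between these libraries. Microglia were taken as live cells with CD11b and CX3CR1 and low CD45. The neuronal and oligodendrocyte-lineage sorts were lightly fixed nuclei without PU.1 that were positive for NEUN or OLIG2 only.

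Disease-associated microglia are a state described in neurodegeneration and around lysosomal storage, in which resting microglial genes are turned down and genes for lipid handling, lysosomes, adhesion and secreted signals are turned up. Part of the change is known to depend on the receptor TREM2. Among the 10 genes, Cst7, Spp1, Csf1 and Lgals3 encode secreted products. Clec7a, Itgax, Axl and Gpnmb encode single-pass surface proteins, and Cd9 and Cd63 encode tetraspanins.

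Values are tags per peak scaled to a library of 10000000, and changes are SgshKO minus WT on the log2(tags + 1) scale with the standard error from limma. The libraries of microglia totalled 10771659 to 11804222 tags, those of NeuN+ nuclei 14326703 to 17706971 and those of Olig2+ nuclei 15044194 to 19555924. The median read count in a member peak of microglia was 27.5 to 37 by library. The share of tags inside peaks in microglia was 55.8% and 48.7% for the WT libraries, against 67.4% and 53.7% for SgshKO. At the strongest Sgsh start-site peak microglia had 229 and 192 tags (WT) and 364 and 253 (SgshKO), the NeuN+ sort 34.6 and 22.6 against 9.07 and 13.3, and the Olig2+ sort 65.9 and 74.2 against 60.9 and 69.1. An open start site does not check a knockout. All 9 microglial markers had a start-site peak in microglia, with summed values of 1947 to 2291 in WT and 1822 to 2363 in SgshKO. All 8 neuronal markers had one in NeuN+ nuclei, and all 9 oligodendrocyte markers in Olig2+ nuclei.

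The promoters of 4 members are printed, which differ in how far microglial peaks covered them. Cst7 and Spp1 had peaks over most of this window, Itgax over 162 bases of it, and Gpnmb over none. None of these 4 genes had a start-site peak that passed the test in microglia, and Lgals3, which had one, is not printed. RefSeq promoters (GRCm38.p6) were matched for all 10 genes by symbol, and each sequence is the 250 bases before the start, 5′ to 3′ on the gene's strand, which is plus for these 4. The windows are chr2:150570165-150570414 for Cst7, chr5:104434861-104435110 for the first start site of Spp1, chr7:128129300-128129549 for Itgax and chr6:49036268-49036517 for Gpnmb. Capitals mark the ETS-type letters GGAAGT on either strand, the longer GAGGAAGT of the microglial factor PU.1, which contains GGAAGT, and the AP-1 letters TGANTCA.
Cst7: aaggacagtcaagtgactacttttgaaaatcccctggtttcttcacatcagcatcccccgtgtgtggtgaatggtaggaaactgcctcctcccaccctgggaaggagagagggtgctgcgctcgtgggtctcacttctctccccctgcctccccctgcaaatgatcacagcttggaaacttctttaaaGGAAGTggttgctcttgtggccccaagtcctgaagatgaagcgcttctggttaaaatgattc
Spp1: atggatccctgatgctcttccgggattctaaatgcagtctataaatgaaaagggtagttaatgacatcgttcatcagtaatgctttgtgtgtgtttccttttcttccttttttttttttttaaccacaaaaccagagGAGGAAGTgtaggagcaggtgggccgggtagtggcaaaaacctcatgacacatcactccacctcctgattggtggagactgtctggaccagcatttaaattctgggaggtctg
Itgax: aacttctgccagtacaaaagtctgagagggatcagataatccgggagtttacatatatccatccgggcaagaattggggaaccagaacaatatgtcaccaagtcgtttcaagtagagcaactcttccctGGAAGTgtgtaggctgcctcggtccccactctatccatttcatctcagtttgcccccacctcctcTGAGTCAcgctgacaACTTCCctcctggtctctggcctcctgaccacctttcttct
Gpnmb: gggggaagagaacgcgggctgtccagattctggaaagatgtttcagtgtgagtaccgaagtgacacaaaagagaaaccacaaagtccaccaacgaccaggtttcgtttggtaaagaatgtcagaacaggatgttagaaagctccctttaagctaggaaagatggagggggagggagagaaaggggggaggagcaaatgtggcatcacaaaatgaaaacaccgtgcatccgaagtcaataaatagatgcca

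GGAAGT was found on either strand in the promoters of 4 of the 10 genes, Cst7, Spp1, Itgax and Cd63, against 19.7% of the 32851 promoters in the table. GAGGAAGT was found in Spp1 alone of the 10, and in 2.44% of all promoters. TGANTCA was found in Itgax alone of the 10, at 56 to 50 bases before the start, and in 6.75% of all promoters. The E-box CACGTG, held by 6.02% of all promoters, and the M-box letters TCATGTGA and TCACGTGA, held by 0.846% and 0.785%, were in 0 of the 10. These matches describe letters in the window and nothing about binding. Microglial peaks covered 225 of the 250 bases in Cst7, 171 in Spp1, 204 in Cd9, 158 in Lgals3 and all 250 in Cd63. The Cd63 window (chr10:128909095-128909344) belongs to a transcript start upstream of the one at which its strongest start-site peaks lie, so that neither its letters nor its coverage describe that start. Taking the first or only start site of each gene, the promoter of Lgals3 was the richest in G and C, at 66.0%, and that of Clec7a the poorest, at 42.0%, beside a median of 52.4% over all promoters. The second start site of Spp1 was poorer still, at 35.6%.

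In microglia, 6 of the 102 peaks passed the test (Benjamini-Hochberg adjusted p under 0.05, named a call from here on), with 5 higher and 1 lower in SgshKO. This is 5.88% of the members, where 7.37% of all microglial peaks were called (5.05% higher and 2.33% lower), so that the members' share lay slightly under that of the table. Among start-site peaks 1 of 16 was called, beside 9.8% of all such peaks, and among distal peaks 5 of 86, beside 6.5%. The 5 higher peaks lay in or near Gpnmb, Cd9 (2 peaks), Lgals3 and Csf1, and the lower one was assigned to Itgax. Fewer cells with an open site and less opening per cell cannot be told apart in such pooled sorts.

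Most of the member changes in microglia lay above 0, but Cd9 held 41 and Csf1 16 of the 102 peaks. Neighbouring peaks of a gene are not independent. By gene, the median change was below 0 at Itgax (-0.68) and Axl (-0.04). At the other genes it was above 0, from 0.12 at Csf1 to 0.52 at Spp1. Of the 102 peaks, 62 had a change above 0, where 44.7% of all peaks did, and the median change was 0.14 beside -0.08 for the table. Both SgshKO libraries lay above both WT libraries at 38 peaks (37.3%, against 23% of all peaks) and below them at 11 (10.8%, against 28.1%). Start-site members had a median of 0.40 beside 0.03 for all start-site peaks, and distal members 0.13 beside -0.12. The median of the members stayed above that of all peaks by 0.16 to 0.36 over 16 settings, while scaling to tags in peaks put both below 0, at -0.06 for the members and -0.28 for the table.

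Each call in microglia rested on both WT libraries. Without WT replicate 1 or without WT replicate 2 no member was called, with 8 and 7 at an unadjusted p under 0.05, and the table itself fell to 1.26% and 0.607% called. Without SgshKO replicate 1 there were 11 member calls (20.5% of the table) and without SgshKO replicate 2 there were 21 (18% of the table). The count model of edgeR on recovered reads called 18 members, 16 of them higher, where it called 15.5% of all peaks, and DESeq2 called 5, all higher, where it called 6.35%. Scaling to tags in peaks gave 5 higher and 2 lower, and cyclic loess gave 12 higher and 0 lower. The share of all peaks called under these scalings is not given here.

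**Figure D1:**
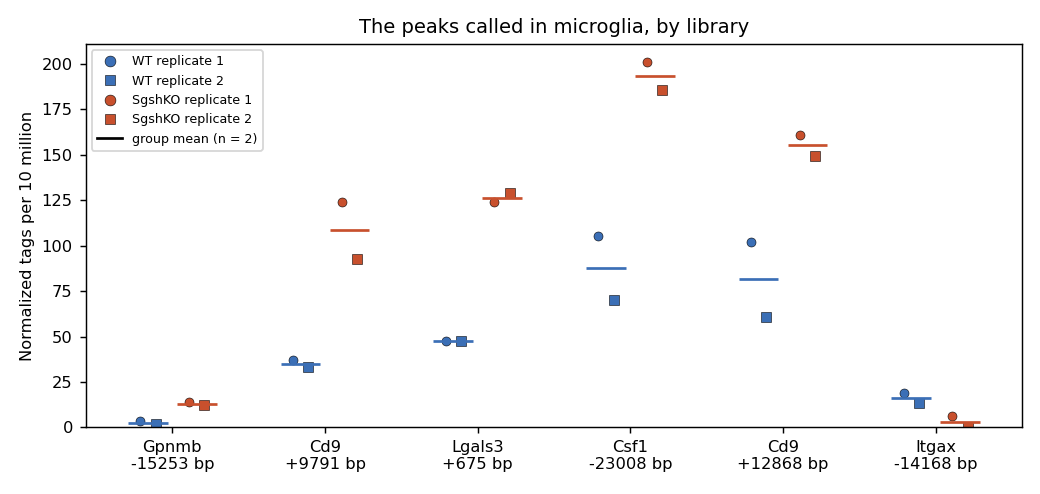
Normalized tags (library total 10000000) in the 4 microglia libraries at the 6 called peaks, ordered by log2 change; circles and squares are replicates 1 and 2, lines are means of 2 libraries, and labels give the distance to the start site. The SgshKO libraries lie above the WT libraries at the first 5 peaks and below them at the Itgax peak.

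Among the secreted products, Lgals3 and Csf1 each had a peak that rose. Lgals3 encodes galectin-3, a lectin that binds galactose-bearing glycans and marks damaged lysosomes. Its peak 675 bp inside the gene (chr14:47374358-47374713, mm10, intron 1) had 47.5 and 47.4 tags in WT and 124 and 129 in SgshKO. The change was 1.39 ± 0.32 (adjusted p = 0.0042), and the libraries of each genotype were close to each other and far from the other genotype. At the start itself, 6 bp upstream, WT had 29.4 and 23.7 tags and SgshKO had 39.0 and 35.3, with a change of 0.47 (adjusted p = 0.51). The Lgals3 call at +675 bp is the only start-site call among the members in microglia, and it is not counted as one with a window of 500 bp. Of the 10 Lgals3 peaks, 8 had a change above 0. The strongest distal Lgals3 peak, 22895 bp upstream, gave 41.5 and 32.2 in WT and 80.5 and 45.5 in SgshKO (0.71 ± 0.37, adjusted p = 0.25).

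Csf1 encodes macrophage colony-stimulating factor, the ligand on which microglial survival depends together with interleukin 34. A peak 23008 bp upstream of Csf1 (chr3:107783366-107783589, intergenic) had 105 and 70.3 tags in WT and 201 and 186 in SgshKO. It rose by 1.16 ± 0.30 (adjusted p = 0.012), with no overlap between genotypes. The neighbouring peak 17780 bp upstream, the strongest distal peak of the gene, had 175 and 155 in WT and 195 and 143 in SgshKO, a change of 0.02 ± 0.28. At the Csf1 start site WT had 181 and 160 tags and SgshKO had 215 and 134, a change of -0.01 ± 0.29 (adjusted p = 0.99). Its SgshKO libraries fell on either side of WT. Per kb of peak, and taking the strongest start-site peak of each gene, mean levels in WT and SgshKO were highest at Cd63, at 464 and 785 tags per kb, and lowest at Axl, at 32.7 and 64.4, with Csf1 at 393 and 400.4.

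Cst7 encodes cystatin F, a cysteine protease inhibitor that acts on lysosomal cathepsins, and Spp1 encodes osteopontin, a secreted ligand of integrins and CD44. The Cst7 start-site peak (chr2:150570165-150570389), which covers most of the window printed above, had 33.7 and 31.3 tags in WT and 60.6 and 66.8 in SgshKO. The genotypes did not overlap, and the change of 0.95 ± 0.36 did not pass the test (adjusted p = 0.098). The Cst7 peak 3162 bp upstream had 25.9 and 13.6 in WT and 28.6 and 14.8 in SgshKO, so that its libraries overlapped.

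At the Spp1 start site (chr5:104434940-104435144) WT had 24.2 and 26.3 tags and SgshKO had 42.4 and 31.6. That change of 0.52 ± 0.39 did not pass (adjusted p = 0.47). The strongest distal Spp1 peak, 9085 bp upstream, had 12.96 and 22.03 in WT and 48.5 and 23.2 in SgshKO (0.95 ± 0.44, adjusted p = 0.19). SgshKO replicate 1 alone stood far above WT there. None of the 3 Cst7 peaks and none of the 5 Spp1 peaks was called.

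**Figure D2:**
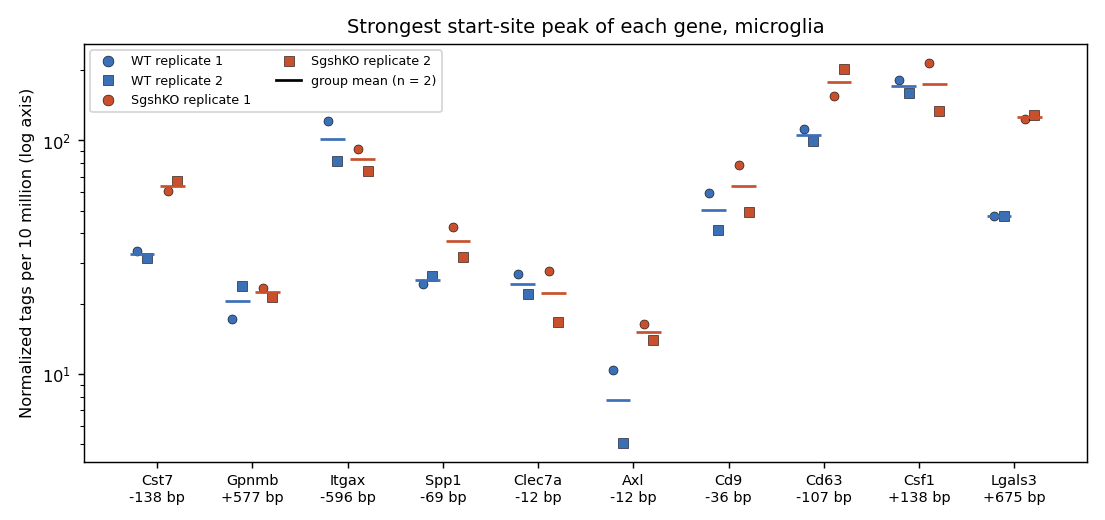
Normalized tags (library total 10000000, log axis) at the start-site peak with the highest mean for each gene in the 4 microglia libraries; circles and squares are replicates 1 and 2 and lines are means of 2 libraries. Lgals3, Axl and Cst7 have the largest ratios of SgshKO to WT means, and at Gpnmb, Itgax, Clec7a, Cd9 and Csf1 the libraries overlap.

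Gpnmb had the largest rise of the microglial members at a distal peak, and its start-site peak was not called. Gpnmb encodes a type I transmembrane glycoprotein of endosomes and the cell surface that is induced by lysosomal stress. Its peak 15253 bp upstream (chr6:49021145-49021385, intergenic) was low, with 3.46 and 1.69 tags in WT and 13.9 and 12.1 in SgshKO, which correspond to 4, 2, 16 and 13 reads. The change was 2.01 ± 0.54 (adjusted p = 0.015). The start-site peak of Gpnmb lay 577 bp inside the gene in intron 1, with 17.3 and 23.7 in WT and 23.4 and 21.4 in SgshKO (0.14 ± 0.43, adjusted p = 0.89). At the peak 3224 bp downstream in the same intron WT had 15.6 and 13.6 tags and SgshKO had 10.4 and 13, a change of -0.30 ± 0.47 (adjusted p = 0.77).

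Itgax encodes the integrin alpha X chain, CD11c, which pairs with the beta 2 chain and is a usual surface marker of these cells. Its called peak lay 14168 bp upstream (chr7:128115300-128115500), inside intron 24 of the neighbouring Itgam, which encodes CD11b, one of the antigens used for the sort. WT had 19.0 and 13.6 tags and SgshKO had 6.06 and 0, or 22, 16, 7 and 0 reads, and 0 reads still allow up to 2.79 tags in that library. The change was -2.68 ± 0.62 (adjusted p = 0.0051), and under cyclic loess it was not called. Its size rested on the SgshKO libraries: it was -1.27 without SgshKO replicate 2, the library at 0, and -4.09 without SgshKO replicate 1. All 4 peaks that are assigned to Itgax but lie in Itgam had changes below 0, from -0.80 to -2.68, and the assignment by nearest start site does not say which gene they serve.

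Within Itgax itself no peak was called. The strongest start-site peak of Itgax, 596 bp upstream, had 121 and 81.3 in WT and 91.8 and 74.3 in SgshKO (-0.26 ± 0.32, adjusted p = 0.68). A second one at 62 bp upstream, over the AP-1 letters shown above, had 32.8 and 30.5 in WT against 35.5 and 36.2 in SgshKO. The strongest Itgax peak in the gene body, 4291 bp downstream in intron 8, had 124 and 86.4 in WT and 138 and 111 in SgshKO (0.25 ± 0.30, adjusted p = 0.68).

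Clec7a encodes dectin-1, a receptor for fungal beta-glucans that signals through SYK, and Axl encodes a receptor tyrosine kinase that binds GAS6 on dying cells. The Clec7a start-site peak had 26.8 and 22.03 in WT and 27.7 and 16.7 in SgshKO (-0.17 ± 0.43, adjusted p = 0.86), and the genotypes overlapped. The only other Clec7a peak, 1919 bp upstream, had 31.1 and 16.1 in WT and 48.5 and 39.9 in SgshKO, a gap that did not pass the test (0.94 ± 0.40, adjusted p = 0.15). At the Axl start site the tags were few, 10.4 and 5.08 in WT and 16.4 and 13.9 in SgshKO (0.96 ± 0.50, adjusted p = 0.26).

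The main open site of Axl in microglia was in the gene body. Its peak 11834 bp downstream in intron 6 (chr7:25776703-25777095) had 304 and 214 in WT and 302 and 164 in SgshKO, a change of -0.19 ± 0.29 (adjusted p = 0.75). Replicate 1 was the higher library in both genotypes there. None of the 6 Axl peaks and neither of the 2 Clec7a peaks was called.

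The tetraspanins organize membrane domains, and Cd63 is also a usual marker of late endosomes and exosomes. Cd9 had 41 microglial peaks, 24 of them with a change above 0, and they spanned 21408 bp upstream to 50487 bp downstream of its start. A pair of them in intron 1 rose. At 9791 bp downstream (chr6:125484855-125485083) WT had 37.2 and 33.0 tags and SgshKO had 124 and 92.8, a change of 1.59 ± 0.34 (adjusted p = 0.0022). The peak at 12868 bp (chr6:125481751-125482033) had 102 and 61.0 in WT and 161 and 149 in SgshKO, a change of 0.97 ± 0.31 (adjusted p = 0.047) that is not called with a pseudocount of 0.5. Without WT replicate 2 the change at 12868 bp was 0.60 and without WT replicate 1 it was 1.33, and neither was called. Both sites were free of overlap between genotypes.

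The other leading Cd9 sites did not pass. Its strongest peak, 49306 bp downstream (chr6:125445311-125445597), had 338 and 265 in WT and 477 and 377 in SgshKO (0.50 ± 0.26, adjusted p = 0.25). The Cd9 start-site peak had 59.6 and 41.5 in WT and 78.8 and 49.2 in SgshKO, with overlapping libraries (0.32 ± 0.35, adjusted p = 0.65). At the Cd63 start site, 107 bp upstream, WT had 111 and 99.1 tags and SgshKO had 155 and 201, and the change of 0.74 ± 0.29 did not pass (adjusted p = 0.11). The Cd63 peak 6346 bp upstream had 103 and 97.4 in WT and 170 and 137 in SgshKO (0.60 ± 0.29, adjusted p = 0.22). Both Cd63 sites had SgshKO libraries above WT, and none of its 7 peaks was called.

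**Figure D3:**
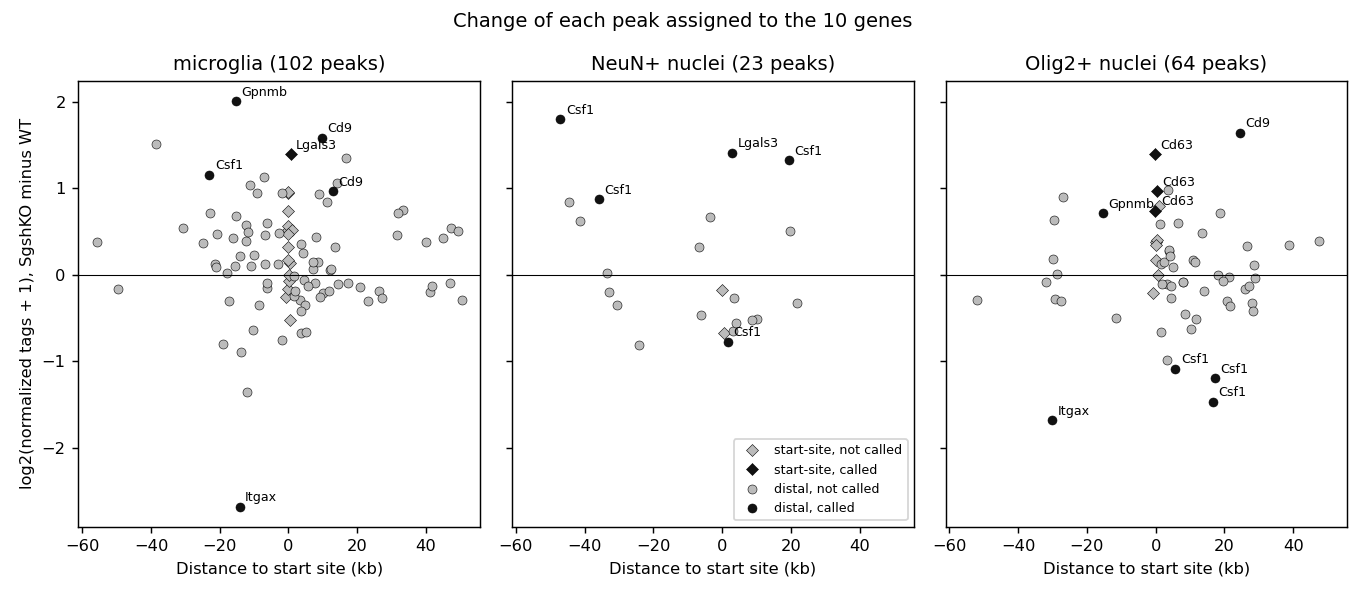
Change of each member peak (SgshKO minus WT, log2(normalized tags + 1)) against its distance to the start site in kb, for microglia (102 peaks), NeuN+ nuclei (23) and Olig2+ nuclei (64). Diamonds are start-site peaks, circles distal peaks, and black symbols with a gene name are called; 1 of 16 start-site peaks is called in microglia and 3 of 10 in Olig2+ nuclei.

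Markers of other cells moved with genotype in the microglia sort. Of 11 markers of blood myeloid cells and border macrophages, 4 had a start-site peak, namely Mrc1, S100a8, Ms4a7 and Pf4. Their summed values were 62.7 to 70.9 in WT and 78.9 to 110 in SgshKO. Ccr2, Ly6c2, Lyve1, Cd163, F13a1, S100a9 and Plac8 had none. Of 9 oligodendrocyte markers, 5 had one, with sums of 308 to 340 in WT and 356 to 418 in SgshKO, and Mag, Mobp and Sox10 were among those with none. The single oligodendrocyte precursor marker with a peak, of 4 listed, went the other way, from 78.8 to 108 in WT to 48.3 to 52.0 in SgshKO. The summed neuronal, astrocyte and endothelial markers overlapped between genotypes. The part of these cells in the changes at member peaks was not tested.

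The other genes of the programme and the homeostatic genes had medians on opposite sides of that of all microglial peaks, which was -0.08, with 7.37% called (5.05% higher and 2.33% lower). Of 349 peaks of 37 other disease-associated genes, 28 were called higher and 5 lower, or 9.46%, with a median change of 0.27. Their smallest p-values were at Fabp5, a fatty acid binding protein, with a change of 4.55 ± 0.41, at Igf1, a growth factor, with 4.96 ± 0.49, and at Timp2, a metalloprotease inhibitor, with 2.54 ± 0.36. Of 356 peaks of 15 homeostatic genes, 2 were called higher and 34 lower, or 10.1%, with a median of -0.56. Mertk, a receptor for dying cells, had a change of -2.52 ± 0.51 at its smallest-p peak.

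Genes for the ligands, receptors and partners of the members were called at a share near that of the table. Csf1r, Mertk, Ctsl and Trem2 stand both here and in a list above. Of 225 peaks of 19 such genes, 5 were called higher and 10 lower, or 6.67% beside 7.37% of all microglial peaks, with a median of -0.21 beside -0.08. Lgals3bp, which encodes a glycoprotein that binds galectins, had 8.64 and 7.62 tags in WT and 85.7 and 81.7 in SgshKO at a peak 2720 bp upstream (3.22 ± 0.40, adjusted p = 1.39e-06). The start-site peak of Cd82, a tetraspanin, had 306 and 269 in WT and 713 and 976 in SgshKO (1.54 ± 0.25, adjusted p = 8.07e-05). Mertk, a relative of Axl, fell at its peak 4830 bp downstream from 17.3 and 29.6 to 2.60 and 3.71.

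In NeuN+ nuclei the members were sparsely open, and the calls were at Csf1 (4 of its 14 peaks) and Lgals3 (1 of its 3). Peaks were assigned to 6 of the 10 genes, and Cst7, Clec7a, Axl and Cd9 had none. Of the 23 peaks, 5 were called (4 higher and 1 lower), or 21.7% beside 29.8% of all peaks of that table (10.2% higher and 19.6% lower). All 5 were among the 21 distal peaks, beside 25.2% of all distal peaks. The median change was -0.19 beside -0.23 for the table, and scaling to tags in peaks turned both above 0, to 0.07 and 0.05. All 8 neuronal markers had start-site peaks, whose sum was 1006 to 1078 in WT and 566 to 573 in SgshKO, and 44.9% of all start-site peaks were called lower. Of 9 microglial markers 1 had a start-site peak, with 48.0 to 54.4 in WT and 32.4 to 34.2 in SgshKO, and the 11 myeloid markers had none. Markers of other cells were lower in sum as well. The 4 of 9 oligodendrocyte markers with a peak summed to 155 to 179 in WT and 85.9 to 88.3 in SgshKO, and Mag, Mobp and Sox10 had none. The 2 of 4 precursor markers summed to 43.6 to 48.0 and 28.6 to 29.2, and the 1 of 6 astrocyte markers had 127 to 137 and 86.6 to 97.8. The part of these shifts in the member changes was not tested.

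The called peaks of NeuN+ nuclei were low. The Lgals3 peak 2905 bp downstream in intron 1 had 10.2 and 5.65 tags in WT and 19.5 and 24.8 in SgshKO (1.41 ± 0.30, adjusted p = 0.0024). Upstream of Csf1, the peak at 47040 bp had 1.13 and 3.39 in WT and 9.77 and 9.52 in SgshKO (1.80 ± 0.41, adjusted p = 0.0036), and the peak at 35915 bp had 9.63 and 5.65 in WT and 12.6 and 16.5 in SgshKO (0.87 ± 0.32, adjusted p = 0.047). Genotypes did not overlap at any of these sites, as was so at 65.9% of all distal peaks of NeuN+ nuclei. At the transcript end of Csf1, 19459 bp downstream, WT had 2.83 and 5.08 tags and SgshKO had 16.1 and 7.62 (1.33 ± 0.39, adjusted p = 0.017). In Csf1 intron 1, 1642 bp downstream, WT had 15.9 and 17.5 and SgshKO 9.77 and 8.89 (-0.78 ± 0.28, adjusted p = 0.043). Leaving out single libraries took the change of Csf1 at 35915 bp upstream down to 0.54 (without WT replicate 2), and that at 19459 bp downstream down to 0.84 (without SgshKO replicate 1). The strongest distal peaks of Itgax (-0.81, adjusted p = 0.068), Gpnmb (-0.65, 0.12), Spp1 (-0.51, 0.079) and Cd63 (-0.27, 0.44) were lower in SgshKO and not called. That of Lgals3 was not called either, at -0.67 to -0.27 without single libraries, and that of Csf1 changed by 0.02.

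The 2 start-site peaks in NeuN+ nuclei were both of Csf1 and neither was called, beside 46.6% of all start-site peaks there. Without either SgshKO library of NeuN+ nuclei no peak of the whole table was called by limma, and 4 members had an unadjusted p under 0.05 in each case. Over the omission of each library in turn the change at the called Lgals3 peak was 1.04 to 1.79. At Csf1 it was 1.28 to 2.32 at 47040 bp upstream, 0.54 to 1.21 at 35915 bp upstream, 0.84 to 1.82 at 19459 bp downstream and -0.84 to -0.71 in intron 1. DESeq2 called 1 member and edgeR 5, where they called 4.55% and 27.4% of all peaks. The lower call at Csf1 intron 1 was lost under scaling to tags in peaks, median of ratios, quantile, cyclic loess and edgeR. They gave 5, 4, 2, 4 and 5 higher calls and 0 lower ones. For the scalings the share of all peaks called is not given here.

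**Figure D4:**
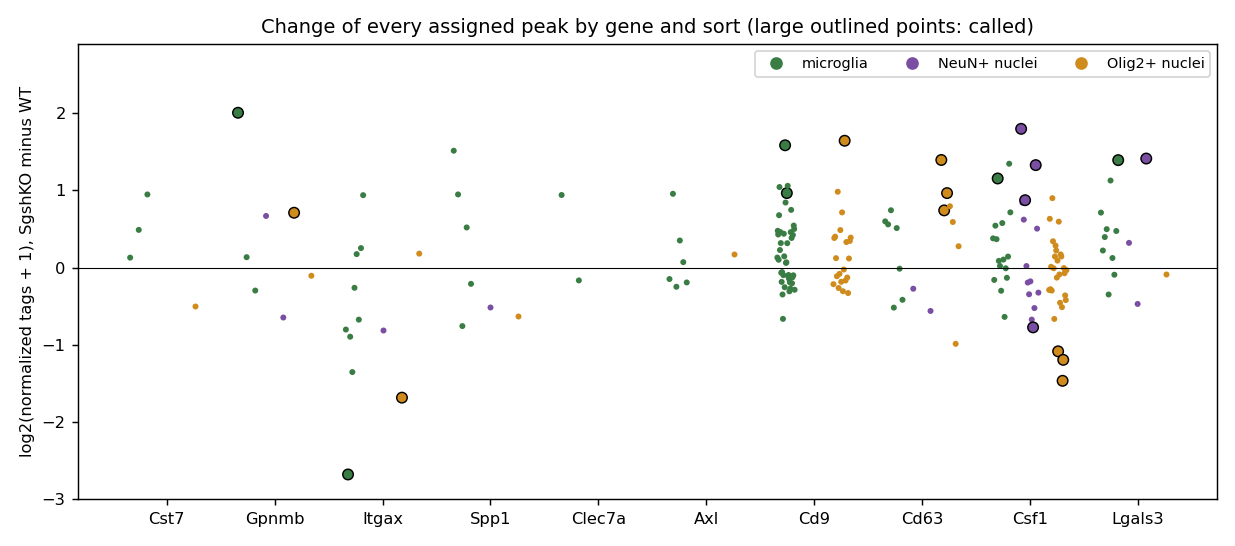
Change (SgshKO minus WT, log2(normalized tags + 1)) of all 189 member peaks by gene, with microglia in green, NeuN+ nuclei in purple and Olig2+ nuclei in orange; large outlined points are the called peaks, 6, 5 and 9 by sort. Cd9 and Csf1 hold most peaks, and Clec7a has peaks in microglia only.

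In Olig2+ nuclei peaks at the Cd63 start sites rose and peaks in the last intron of Csf1 fell. Of the 64 peaks of 9 genes, Clec7a having none, 9 were called (5 higher and 4 lower), or 14.1% beside 19.8% of all peaks (8.17% higher and 11.7% lower). At start sites 3 of 10 were called, all higher and all of Cd63, beside 20.3% of all start-site peaks (12.7% higher), and 6 of 54 distal peaks were called beside 19.7%. The median change was -0.01 beside -0.07 for the table. Oligodendrocyte markers summed to 3501 to 3544 in WT and 2890 to 2893 in SgshKO, and the 4 precursor markers to 270.0 to 272 and 326 to 328. The 5 of 8 neuronal markers with a peak went from 261 to 296 in WT to 336 to 346 in SgshKO, and Rbfox3 had none. The 1 of 6 astrocyte markers had 8.18 to 9.34 and 5.98 to 6.15. Of 9 microglial markers 2 had a start-site peak, with 233 to 240 in WT and 271 to 284 in SgshKO, while Cx3cr1, P2ry12, Tmem119, Csf1r and all 11 myeloid markers had none. The part of these shifts in the member changes was not tested.

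The Cd63 start-site peak, 65 bp upstream (chr10:128909699-128909903), had 158 and 119 tags in WT and 227 and 232 in SgshKO. It rose by 0.74 ± 0.11 (adjusted p = 1.42e-05) and was called in all 15 alternatives that gave it a value. Its neighbours rose as well. The Cd63 peak at 397 bp downstream in intron 1 had 14.0 and 12.8 in WT and 24.0 and 30.6 in SgshKO (0.97 ± 0.25, adjusted p = 0.0074), and the peak at chr10:128908493-128908801 had 2.59 and 5.62 in WT and 11.1 and 12.6 in SgshKO (1.40 ± 0.37, adjusted p = 0.0080). The latter lies 272 bp upstream of another, more upstream transcript start of Cd63, so that its distance is not counted from the same base as the other 2. The 3 peaks are neighbours at 1 gene and are not independent. The call at 397 bp was lost with DESeq2, without WT replicate 2 (0.90) and without SgshKO replicate 2 (0.80), and the call at the upstream start was lost without WT replicate 1 (0.95).

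Of the 28 Csf1 peaks in Olig2+ nuclei 3 were called, all lower and all in introns, beside 19.8% of all peaks called and 11.7% called lower. A change above 0 was found at 11 of the 28. The peak 16719 bp downstream in the last intron (chr3:107743629-107743872) had 71.6 and 66.5 in WT and 23.4 and 25.3 in SgshKO. It fell by 1.47 on the log2 scale, with a standard error of 0.18 (adjusted p = 9.45e-07), and was called in all 15 alternatives. The next peak in that intron, at 17278 bp, had 22.8 and 19.4 in WT and 8.61 and 8.64 in SgshKO (-1.20 ± 0.28, adjusted p = 0.0035). At 5720 bp WT had 14.0 and 14.3 tags and SgshKO had 9.22 and 3.99 (-1.09 ± 0.35, adjusted p = 0.026). The call at 5720 bp was lost under quantile normalization (-0.97), without WT replicate 1 (-1.10), without WT replicate 2 (-1.07) and without SgshKO replicate 2 (-0.57). Omitting the other SgshKO library gave -1.60. That at 17278 bp was lost without WT replicate 1 (-1.09). The Csf1 start site did not pass, with 81.4 and 83.9 in WT and 107 and 103 in SgshKO (0.34 ± 0.13, adjusted p = 0.057).

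The remaining calls in Olig2+ nuclei were single peaks. Gpnmb rose at its peak 15320 bp upstream, from 42.0 and 35.3 to 67.0 and 60.5 (0.71 ± 0.17, adjusted p = 0.0040). Cd9 rose at a low peak 24498 bp downstream in intron 2, from 2.07 and 3.07 to 11.7 and 8.64 (1.65 ± 0.38, adjusted p = 0.0029). The peak assigned to Itgax 30054 bp upstream, inside intron 12 of Itgam, fell from 14.5 and 10.7 to 3.07 and 3.32 (-1.69 ± 0.36, adjusted p = 0.0013). Genes with only 1 peak in Olig2+ nuclei had no call, with changes of -0.62 at Spp1, -0.50 at Cst7, -0.08 at Lgals3 and 0.18 at Axl. The member site with the most tags in any sort was the Cd9 peak 27277 bp downstream in Olig2+ nuclei (chr6:125467313-125467654), with 802 and 787 in WT and 717 and 737 in SgshKO, a change of -0.13 ± 0.05 that did not pass (adjusted p = 0.065). Without WT replicate 1 the calls at Cd9 (1.44) and Itgax (-1.49) were lost, and without WT replicate 2 that at Gpnmb (0.59). DESeq2 called 3 members and edgeR called 13 (9 higher and 4 lower), and scaling to tags in peaks gave 8 higher and 4 lower. The share of all peaks called under these settings is not given here. A shift of the members thus cannot be told from a shift of the whole table.

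Whether the change with genotype differed between sorts was tested at paired peaks, by choice at a reciprocal overlap of at least 50%. Microglia and NeuN+ nuclei shared 5 member pairs, and limma called none of these differences, with 0 at an unadjusted p under 0.05, beside 29.3% of 24964 paired peaks called. Microglia and Olig2+ nuclei shared 15 member pairs, and 1 difference was called, beside 15.2% of 22710 paired peaks. That pair was in Cd9 intron 1, farther into the intron than the 2 called microglial peaks. At its microglial peak 14105 bp downstream WT had 21.6 and 18.6 tags and SgshKO had 44.1 and 41.8, and at the overlapping Olig2+ peak WT had 38.4 and 34.8 and SgshKO 27.1 and 37.9. The changes were 1.06 and -0.18, and their difference was 1.24 ± 0.38 (adjusted p = 0.035). Neither change alone passed its own test. The difference missed the threshold under scaling to tags in peaks (adjusted p = 0.058), without microglia WT replicate 2 (0.11), and without Olig2+ WT replicate 1 (0.15), WT replicate 2 (0.0997) or SgshKO replicate 1 (0.18).

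At the strongest Cd63 start-site pair the change was 0.74 in each sort, and the difference was 0.00 with a 95% interval of -0.54 to 0.54. The Cd63 pair in intron 1, at 375 bp in microglia and 397 bp in Olig2+ nuclei, had changes of opposite sign. In microglia it went from 10.4 and 16.9 tags (WT) to 8.66 and 9.28 (SgshKO), a change of -0.52 (adjusted p = 0.58) beside the called rise of 0.97 in Olig2+ nuclei. The difference of -1.49 ± 0.50 did not pass (adjusted p = 0.052), with a 95% interval of -2.53 to -0.44 before adjustment. The upstream Gpnmb peak was called higher in both sorts, with a difference of 1.30 ± 0.48 that did not pass (adjusted p = 0.077). The WT level of that Gpnmb peak was 2.58 tags in microglia and 38.6 in Olig2+ nuclei, and the microglia sort with 12.96 tags in SgshKO stayed below the WT level of the other sort, though each library was scaled on its own and levels in different sorts were not tested. With pairing at 25% overlap, which gave 20 member pairs, the Csf1 peak in the last intron entered as well. Its microglial tags numbered 3.46 and 8.47 in WT against 19.9 and 12.1 in SgshKO (1.35, adjusted p = 0.11), against the fall in Olig2+ nuclei given above, and the difference was 2.82 ± 0.52 (adjusted p = 0.0016), beside 14.7% of 25312 paired peaks called.

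**Figure D5:**
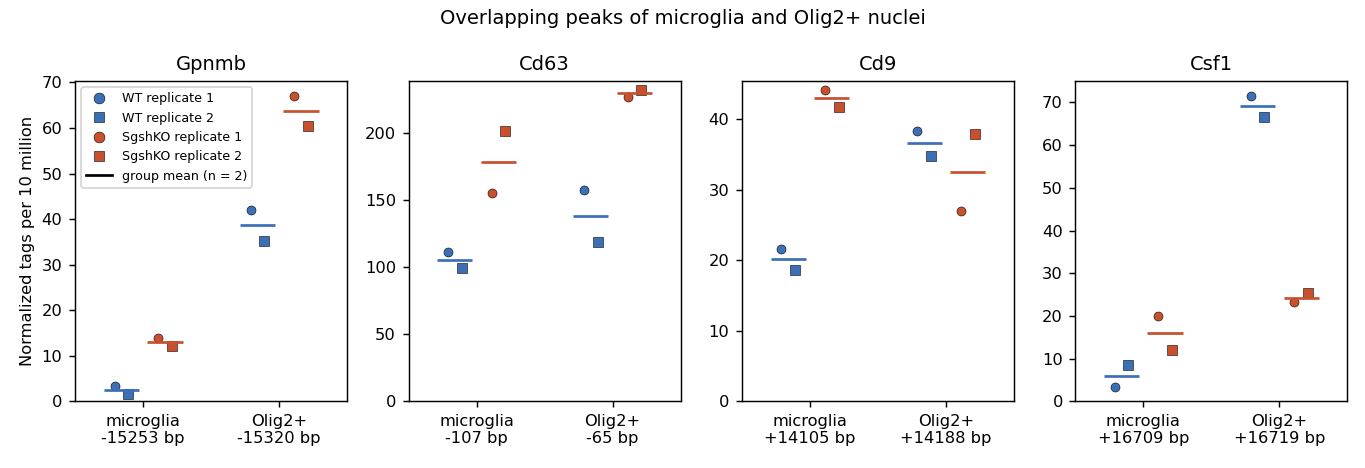
Normalized tags (library total 10000000) in the 2 WT (blue) and 2 SgshKO (red) libraries of microglia and Olig2+ nuclei at 4 pairs of overlapping peaks, with means of 2 libraries as lines and distances to the start site below. Gpnmb and Cd63 are higher in SgshKO in both sorts, the genotypes overlap at Cd9 in Olig2+ nuclei and not in microglia, and Csf1 is lower in SgshKO in Olig2+ nuclei.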

How the data were processed

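ATAC-seq libraries of 3 sorts, each with 2 WT and 2 SgshKO libraries, were read from 1 deposited table per sort. The submitters' processing notes name Bowtie2, HOMER and build mm10 without roles or versions, and per the names of the deposited tables peaks were IDR peaks merged over both genotypes. The sources used here do not give read shifting, duplicate handling or the pooling behind peak calls. Per the file headers, the deposited signal is tags per peak scaled to a library total of 10000000. The authors' deposited Peak Score is a score of unstated making, used only as a filter in 1 alternative. All 12 signal columns matched a sample title, with 0 left over.

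Dividing out the totals gave whole reads for 100% of values (within 0.01), on which edgeR 4.0.16 (TMM, quasi-likelihood) and DESeq2 1.42.0 were run as alternatives. The main test was limma 3.58.1 in R 4.3.3 (lmFit, eBayes with trend, two-sided) on log2(normalized tags + 1), fitted on every peak of a table with Benjamini-Hochberg adjustment, called under 0.05. The log2 scale with a pseudocount of 1 understates the change of low peaks. Differences between sorts came from a limma contrast over 8 libraries on peaks paired one-to-one by reciprocal overlap (GenomicRanges 1.54.1). Scripts were tested on simulated data. Coordinates and distances are those of the deposited tables, which assign a peak to the nearest start site and do not link it to a gene's activity. Counting limits (3 reads for a value of 0) cover counting error only.

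The members and lists were chosen with earlier results of these data known. Peaks named for the alternatives were, for each gene and sort, the strongest start-site and distal peak and every called peak. In NeuN+ and Olig2+ nuclei the values of those not called are given in part. Further peaks of Lgals3, Itgax, Cd9, Cd63 and Csf1 (at -6, -62, +14105, +375 and +16709 bp) were chosen after their values were seen. Genes of other lists were named where they held 1 of the list's 3 smallest p-values, except for a gene not reported here. Alternatives were pseudocounts, a filter on low peaks, other scalings, the count models, thresholds, windows, overlaps, a replicate block and leaving out each library.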

Additional observations from a re-analysis of the deposited data

Results flagged for a closer look

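The change with genotype at 1 paired peak in Cd9 intron 1 differed between microglia and Olig2+ nuclei by 1.24 on the log2 scale, by a test of the difference itself (limma, adjusted p = 0.035). In microglia the mean went from 20.1 tags in WT to 43.0 in SgshKO, and in Olig2+ nuclei from 36.6 to 32.5. Neither change alone passed its own limma test (adjusted p = 0.095 in microglia and 0.56 in Olig2+ nuclei). This was the only member pair called at 50% overlap, while 15.2% of all 22710 paired peaks were called. Over the omission of each library in turn the difference was 1.01 to 1.48, and it was called without 4 of the 8 libraries.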

How the results depend on the processing

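With 2 libraries a group, calls depended on the libraries and scaling. The share of all peaks called under each setting is not set beside the member counts below. When single libraries were left out, the share of all peaks called moved as well, in each of the sorts. It also moved for the differences between microglia and Olig2+ nuclei. The member counts below thus do not tell a shift of the members from a shift of the whole table, and are not read as a change of the members. Over the omission of each library in turn, member calls were 0 to 21 in microglia, 0 to 2 in NeuN+ nuclei and 4 to 12 in Olig2+ nuclei, and called differences were 0 to 3 between microglia and Olig2+ nuclei. In microglia the 6 calls became 15 under median of ratios, 12 under quantile and 12 under cyclic loess, 18 with edgeR and 3 at an adjusted p under 0.01, and the 1 start-site call became 0 with a window of 500 bp. In NeuN+ nuclei the 5 calls became 3 without the lowest 25% of peaks, 2 under quantile, 1 with DESeq2, 2 at the highest Peak Score and 2 at an adjusted p under 0.01, and the 0 start-site calls became 2 with a window of 3000 bp. In Olig2+ nuclei the 9 calls became 3 with DESeq2 and 18 at an adjusted p under 0.1. Called differences between microglia and Olig2+ nuclei became 2 at 25% overlap, 0 at 75%, 2 under quantile and 2 with a pseudocount of 5. Between microglia and NeuN+ nuclei they stayed at 0 under every alternative run. All 20 called peaks kept their direction wherever a setting gave a value. They were called in these same libraries, so that this is no independent check of direction. The median member peak held 14 to 37 reads by library, so that small changes were not detectable, and the cause of these shifts was not tested.

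Replicate numbers are not said to mark a shared animal or day, and the deviations of same-numbered libraries correlated at 0.042, 0.0036 and 0.00069 in microglia, NeuN+ and Olig2+ nuclei. With the replicate block member calls were 14, 6 and 12, and called differences between microglia and Olig2+ nuclei were 2. The share of all peaks called with the block is not given here.

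The median member change in NeuN+ nuclei (-0.19) was -0.30 without the lowest peaks, 0.075 scaled to tags in peaks, 0.00083 under median of ratios, 0.0050 with edgeR, 0.0043 with DESeq2 and -0.28 to -0.080 without single libraries. The median of all peaks of that table (-0.23) moved as well, to 0.046 scaled to tags in peaks, -0.030 under median of ratios, -0.027 with edgeR and -0.025 with DESeq2. The members minus all peaks gave -0.087 to 0.14 over 16 settings. In Olig2+ nuclei the median member change (-0.01) was 0.055 under median of ratios, 0.069 under quantile, 0.084 under cyclic loess, 0.055 with edgeR, 0.060 with DESeq2, -0.081 at the highest Peak Score and -0.039 to 0.069 without single libraries. The median of all peaks there (-0.074) moved as well, to -0.0096 under median of ratios, -0.0088 under quantile, -0.0092 under cyclic loess, -0.0079 with edgeR and -0.0062 with DESeq2.

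Changes of sign among the named peaks occurred only at peaks that were not called. In microglia Csf1 at -17780 bp was -0.19 scaled to tags in peaks, -0.28 under quantile and -0.25 under cyclic loess, Csf1 at +138 bp was 0.047 under median of ratios, 0.043 with edgeR and 0.057 with DESeq2, Gpnmb at +577 bp and Cst7 at -3162 bp were -0.064 and -0.069 scaled to tags in peaks, and Cd9 at +49306 bp was -0.0074 under quantile. In NeuN+ nuclei Cd63 at +3586 bp was 0.0077 scaled to tags in peaks, and Csf1 at -18 bp was 0.093 under that scaling, 0.018 under median of ratios, 0.070 with edgeR and 0.087 with DESeq2. In Olig2+ nuclei Csf1 at -28641 bp was -0.0041 under quantile and -0.0059 under cyclic loess. Without single libraries, the range in microglia was -0.63 to 0.24 for Axl at +11834 bp, -0.35 to 0.33 for Csf1 at +138 bp, -0.20 to 0.24 for Csf1 at -17780 bp, -0.55 to 0.021 for Itgax at -596 bp, -0.0030 to 0.51 for Itgax at +4291 bp, -0.083 to 0.35 for Gpnmb at +577 bp, -0.32 to 0.58 for Cst7 at -3162 bp, -0.016 to 0.65 for Cd9 at -36 bp and -0.51 to 0.18 for Clec7a at -12 bp. In NeuN+ nuclei it was -0.69 to 0.33 for Csf1 at -18 bp and -0.10 to 0.14 for Csf1 at -33519 bp. In Olig2+ nuclei it was -0.063 to 0.083 for Csf1 at -28641 bp, -0.15 to 0.51 for Itgax at -29779 bp, -0.17 to 0.012 for Lgals3 at -31873 bp and -0.023 to 0.38 for Axl at +235 bp.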
